A study of Mus musculus with 12 samples.

Results

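Growth arrest genes were examined in gastrocnemius, the main calf muscle, of mini-muscle and regular-muscle mice. They were 9 genes chosen by name, with earlier results of these data known. All 18 probe sets whose annotation names exactly 1 of them were taken. The array holds 45101 probe sets, of which 34958 name a single gene. Cdkn1c, Gadd45a and Gadd45g had 1 probe set, Cdkn1a, Cdkn1b and Btg2 had 2, and Gadd45b, Ccng1 and Mdm2 had 3. The study hybridised 12 arrays, 1 per male mouse, with animals of generation 37 that were 84 days old on average (79 to 86 days). All mice of both groups came from lines selected for high voluntary wheel running (HR). The 6 mini-muscle mice belonged to HR line 3 and show the mini-muscle phenotype, a heritably small hindlimb musculature. The 6 regular-muscle mice belonged to HR line 8. RNA of the mini-muscle animals came from left and right muscles pooled within each animal, and RNA of the regular-muscle animals from a single limb. Phenotype, line and limb pooling split the 12 arrays identically, so their parts in a difference cannot be told apart. Each group is a single line. Replicates are numbered 1 to 6 here in accession order, only to name the arrays, and a number shared by both groups pairs nothing.

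Cdkn1a, Cdkn1b and Cdkn1c encode the Cip/Kip inhibitors, which bind cyclin-dependent kinases and hold cells out of the cell cycle. In muscle, Cdkn1a is known for the exit of myoblasts from the cycle during differentiation. The Gadd45 proteins are small stress-response factors that bind cell cycle proteins and the kinase Map3k4, and Gadd45a is known to rise in muscle after denervation. Cdkn1a, Gadd45a, Ccng1, Mdm2 and Btg2 are textbook targets of the transcription factor p53, and Mdm2 is the ubiquitin ligase that degrades p53.

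The start sites of 3 members are shown because Cdkn1a and Gadd45a were higher in mini-muscle while Gadd45b, the paralogue of Gadd45a, was lower at 1 of its probe sets. The sequences are the 250 bases before each RefSeq start (GRCm38.p6), read 5′ to 3′ on the gene's strand. They are chr17:29090729-29090978 (+) for the upstream start of Cdkn1a, chr17:29093519-29093768 (+) for its downstream start, chr6:67037408-67037657 (-) for Gadd45a and chr10:80929841-80930090 (+) for Gadd45b. Capitals mark ACATGT, the core of a p53 site of the Cdkn1a form, and GGGCGG (the GC box) in Cdkn1a, and ATGCAAAT (the octamer bound by Oct factors) and CCAAT in the Gadd45 genes, each on either strand.
Cdkn1a upstream start: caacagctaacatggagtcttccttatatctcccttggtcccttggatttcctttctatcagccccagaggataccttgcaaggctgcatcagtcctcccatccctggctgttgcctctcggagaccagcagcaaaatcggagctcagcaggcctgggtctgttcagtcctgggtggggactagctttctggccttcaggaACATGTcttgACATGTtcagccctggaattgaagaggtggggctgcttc
Cdkn1a downstream start: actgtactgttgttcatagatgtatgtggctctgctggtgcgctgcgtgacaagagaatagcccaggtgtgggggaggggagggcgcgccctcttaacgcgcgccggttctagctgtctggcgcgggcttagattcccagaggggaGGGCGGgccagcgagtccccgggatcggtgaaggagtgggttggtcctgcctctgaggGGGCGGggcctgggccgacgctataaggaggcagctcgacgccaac
Gadd45a: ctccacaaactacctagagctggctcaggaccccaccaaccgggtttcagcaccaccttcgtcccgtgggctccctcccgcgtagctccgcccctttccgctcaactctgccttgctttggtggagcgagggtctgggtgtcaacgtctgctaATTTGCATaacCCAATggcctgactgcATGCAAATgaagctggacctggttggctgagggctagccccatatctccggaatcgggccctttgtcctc
Gadd45b: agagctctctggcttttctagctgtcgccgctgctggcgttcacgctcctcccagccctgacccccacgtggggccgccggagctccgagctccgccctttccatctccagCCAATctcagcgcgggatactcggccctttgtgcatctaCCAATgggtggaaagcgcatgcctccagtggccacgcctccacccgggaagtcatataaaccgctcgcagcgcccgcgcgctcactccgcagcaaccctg
The window of the upstream Cdkn1a start holds ACATGT at 49 and 39 bases before the start, a pair found with this spacing in 4 of 32851 promoter windows of the same length, whereas a single ACATGT was in 4.58% of them. The downstream window holds GGGCGG at 104 and 46 bases before its start (32.7% of windows hold at least 1). Gadd45a holds the octamer at 97 and 70 bases with a CCAAT between them at 86. At least 1 octamer was in 1.6% of windows, at least 2 were in 32 windows, and CCAAT was in 33.8%. Gadd45b holds CCAAT at 139 and 100 bases and no octamer in this window. Gadd45g, the third paralogue, whose difference was negative and not called, holds an octamer at 103 bases and a CCAAT at 78. The search also covered TATAA (22.8%), CAGCTG (13.0%) and TGACGTCA (1.55%), and no capitals overlap. Such matches describe letters and do not show binding, and their part in the differences was not tested. RefSeq windows were found for 8 of the 9 members, all but Cdkn1c.

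Levels are given as log2 of the MAS5 intensity. A difference is the mini-muscle mean less the regular-muscle mean, with the standard error (SE) of the limma fit and n = 6 arrays per group throughout. A probe set was called where its p, adjusted by Benjamini-Hochberg over all 34958 single-gene probe sets, was under 0.05. Group means are given with the standard deviation (SD). In that fit 3117 probe sets (8.92%) were called, 1749 higher (5.00%) and 1368 lower (3.91%) in mini-muscle, with a median difference of 0.01. Of the 18 probe sets of the growth arrest genes 6 were called, 4 higher and 2 lower, which is 33.3%. They belong to 5 genes: Cdkn1a at both of its probe sets, Gadd45a, and Btg2 at 1 of 2 were higher, and Gadd45b and Ccng1 at 1 of 3 each were lower. Bright probe sets were called more often in the whole table. Among those with a mean at or above the median of 7.96, 16.6% were called, and 5 of the 14 members above that level were. For 3 member probe sets no array of either group lay within the range of the other group, as for 5.46% of all probe sets.

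**Figure D1:**
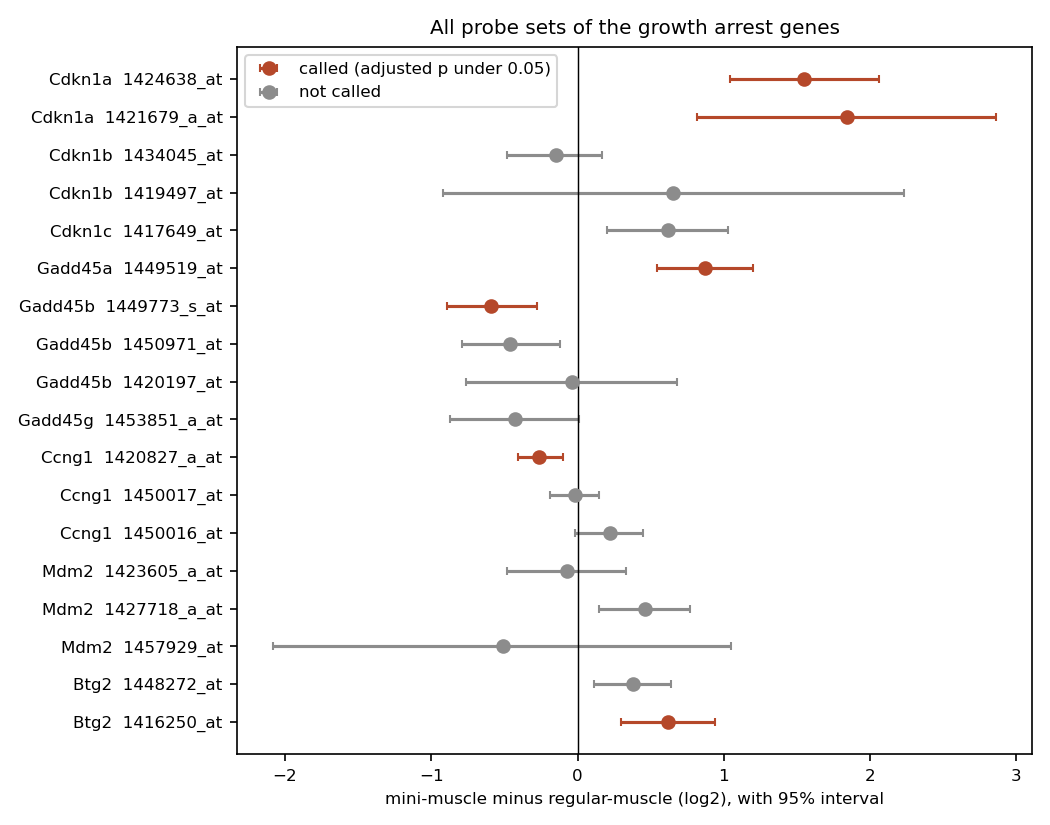
Difference between mini-muscle and regular-muscle (log2, horizontal axis) for each of the 18 probe sets, with 95% intervals of the limma fit, n = 6 arrays per group. The 6 called probe sets are in red; both Cdkn1a probe sets lie farthest to the right at 1.55 and 1.84, and the other probe sets of Gadd45b, Ccng1 and Btg2 were not called.

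All 7 fixed skeletal muscle markers lay above the median level, and 1 was called higher (Myh1, 0.29) and 3 lower in mini-muscle (Myh4 -1.33, Actn3 -0.36 and Tnnt3 -0.29). Their summed intensity was 850613 to 972995 in mini-muscle and 990098 to 1227644 in regular muscle, without overlap. With arrays centred on their medians the calls of Myh1, Actn3 and Tnnt3 were lost (adjusted p = 0.25 to 0.44), as was that of Tnnt3 with quantile normalization (adjusted p = 0.71). Array medians did not pass a test between groups (-0.01, two-sided exact permutation p = 0.89, adjusted p = 0.89 over the 3 array measures tested). The 3′ minus 5′ difference of the Gapdh control probe sets, a sign of RNA quality, was -0.19 to -0.09 in mini-muscle and -0.24 to -0.15 in regular muscle (difference 0.08, exact permutation p = 0.013, adjusted p = 0.039). That of Actb was -0.76 to 0.02 and -0.61 to 0.02 (exact permutation p = 0.24, adjusted p = 0.36). The part of RNA quality in the results was not tested. Of the fibroblast markers 4 of 6 measured genes were lower and 0 higher, where 11.1% of all 18194 genes were called at their brightest probe sets. They were Col1a1 (-1.42), Col1a2 (-1.04), Dcn (-0.85) and Col3a1 (-0.71). Pdgfra (-0.45) and Lum (0.07) were not called. The summed intensity of the fibroblast markers was 24853 to 43129 against 44467 to 69826, and it leans on bright genes such as Dcn (mean 14.07). Macrophage markers were lower in 2 of 7, with sums of 4096 to 5916 against 5197 to 8364 (1 of 7 with median centring, where Csf1r had adjusted p = 0.16, and 3 of 7 with quantile normalization). Satellite cell markers, those of the muscle stem cells, were higher in 2 of 7 (Itga7 and Myf5), with sums of 5733 to 7757 against 4377 to 5534. The sums lean on bright genes such as Itga7 (mean 11.04). Pax7, the marker that defines these cells, and Calcr lay below the median level. Their differences were negative and not called (-0.67 and -1.04). Those of Vcam1, Cdh15 and Sdc4 were positive and not called (0.45, 0.17 and 0.19). None of the endothelial (7), adipocyte (5), Schwann cell (5) or lymphocyte (6) markers was called by limma, and 5 of the 6 lymphocyte markers lay below the median level. Fewer cells of a type and less RNA per cell cannot be told apart in whole muscle, and the part of these cell types in the values below was not tested.

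Cdkn1a, the best known Cip/Kip inhibitor, had the largest difference of the 9 genes. Its brighter probe set (1424638_at) read 11.23, 11.45, 11.97, 11.56, 12.04 and 11.78 on mini-muscle replicates 1 to 6 and 9.63, 9.73, 10.38, 11.21, 10.48 and 9.31 on regular-muscle replicates 1 to 6. Every mini-muscle array lay above every regular-muscle array, but only just for regular-muscle replicate 4 (the next highest of that group read 10.48). The median intensity was 3264 in mini-muscle and 1094 in regular muscle. The group means were 11.67 ± 0.31 and 10.12 ± 0.70 (SD), a 2.92-fold difference (log2 1.55, SE 0.24, 95% interval 1.04 to 2.06, adjusted p = 2.7e-04). Without regular-muscle replicate 4 the difference was 1.76, and it passed in all 12 cases that left out 1 array (1.38 to 1.76). The dimmer probe set (1421679_a_at), whose mean of 7.44 is below the median of all probe sets, read 7.47 to 8.96 (median 8.40) in mini-muscle and 5.21 to 7.79 (median 6.53) in regular muscle. Here 5 of 6 mini-muscle arrays lay above all regular-muscle arrays. The difference was 1.84 (SE 0.49, adjusted p = 0.020 in limma), and it no longer passed without mini-muscle replicate 5 (adjusted p = 0.057) or replicate 6 (adjusted p = 0.058). The probe sets agreed in direction, while within the groups their values were only weakly related (Pearson r = 0.30 over 12 arrays after removal of the group means, a description).

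The other Cip/Kip inhibitors were not called. Cdkn1b, which restrains the start of DNA replication, read 11.40 to 12.31 (median 11.97) in mini-muscle and 11.58 to 12.52 (median 12.08) in regular muscle at its bright probe set. The ranges overlapped almost fully, with a difference of -0.15 (SE 0.15, 95% interval -0.48 to 0.17, adjusted p = 0.68 in limma). Its second probe set was dim, with a mean of 6.54, and ranged from 4.12 to 8.30 and from 4.11 to 7.73, so that the 95% interval of its difference ran from -0.92 to 2.23. Cdkn1c, an imprinted inhibitor, read 9.97 to 10.87 (median 10.37) in mini-muscle. In regular muscle 5 arrays read 9.39 to 9.79 and replicate 5 read 10.60. The difference was 0.62 (SE 0.20, 95% interval 0.20 to 1.03) and missed the threshold (adjusted p = 0.062 in limma). It passed without regular-muscle replicate 5 (0.79, adjusted p = 0.0054), without mini-muscle replicate 3 or 6 (0.69 each, adjusted p = 0.042 and 0.045) and in a fit of bright probe sets alone (adjusted p = 0.037), which called 20.0% of 17479 probe sets and 8 of the 14 members in it.

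**Figure D2:**
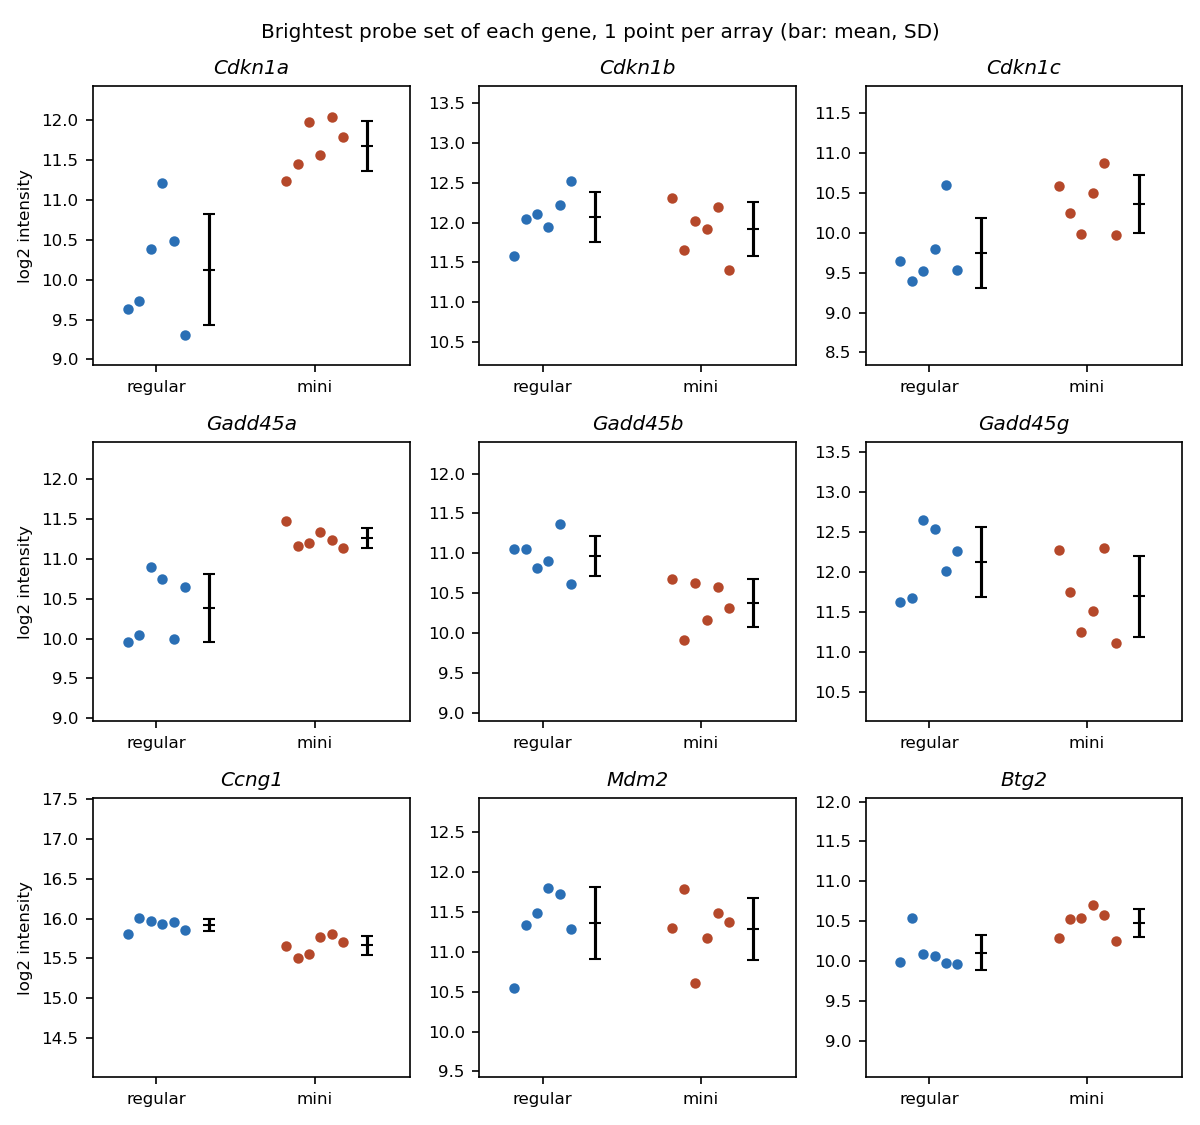
Log2 intensity (vertical axis, all panels span the same range) on every array for the brightest probe set of each of the 9 genes, regular-muscle arrays in blue and mini-muscle arrays in red, with the mean and SD of 6 arrays beside them. The groups do not overlap for Cdkn1a, Gadd45a and Ccng1, and they overlap for the other 6 genes.

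Gadd45a and Gadd45b were called in opposite directions, Gadd45b at 1 of its 3 probe sets. Gadd45a read 11.47, 11.16, 11.20, 11.33, 11.23 and 11.14 on mini-muscle replicates 1 to 6 and 9.96, 10.05, 10.90, 10.75, 9.99 and 10.64 on regular-muscle replicates 1 to 6. The mini-muscle arrays lay close together and above all regular-muscle arrays, of which 3 read 9.96 to 10.05 and 3 between 10.64 and 10.90. The group means were 11.25 ± 0.13 and 10.38 ± 0.42 (SD), a 1.83-fold difference (log2 0.87, SE 0.16, 95% interval 0.54 to 1.20, adjusted p = 9.4e-04). It passed in all 12 cases that left out 1 array (0.79 to 0.98) and in each of the other alternatives.

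Gadd45b, which is known as an early response gene of inflammatory and growth factor signals, was lower at its brightest probe set (1449773_s_at). That probe set read 10.68, 9.92, 10.63, 10.17, 10.58 and 10.31 on mini-muscle replicates 1 to 6 and 11.05, 11.05, 10.82, 10.91, 11.37 and 10.62 on regular-muscle replicates 1 to 6. Of the mini-muscle arrays 4 lay below every regular-muscle array. The difference was -0.59 (SE 0.15, 95% interval -0.89 to -0.28, adjusted p = 0.013), or 1.5-fold lower. The call was lost with arrays centred on their medians (adjusted p = 0.056), without the intensity trend of the fit (adjusted p = 0.082) and with the mean of the 3 probe sets (-0.36, adjusted p = 0.15), a fit that called 7.35% of all genes. It held in the fit of 1 probe set per gene over bright genes (adjusted p = 0.0055), which called 26.7% of genes. A second probe set (1450971_at) differed by -0.46 (SE 0.16, adjusted p = 0.095 in limma). There regular-muscle replicate 3 read 9.93 and the other regular-muscle arrays 10.61 to 10.86, against 9.69 to 10.38 in mini-muscle, and without that array the difference was -0.59 and passed (adjusted p = 0.0076). The third probe set had a mean of 7.73, below the median level, and differed by -0.04 (SE 0.34).

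Gadd45g read 11.11 to 12.30 (median 11.63) in mini-muscle and 11.62 to 12.65 (median 12.14) in regular muscle. Its difference of -0.43 (SE 0.21, 95% interval -0.87 to 0.01) did not pass (adjusted p = 0.28 in limma). Across arrays within the groups Gadd45a and Gadd45g had the highest correlation of the 36 pairs of brightest probe sets (Pearson r = 0.71 over 12 arrays, a description), although their group differences had opposite signs.

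**Figure D3:**
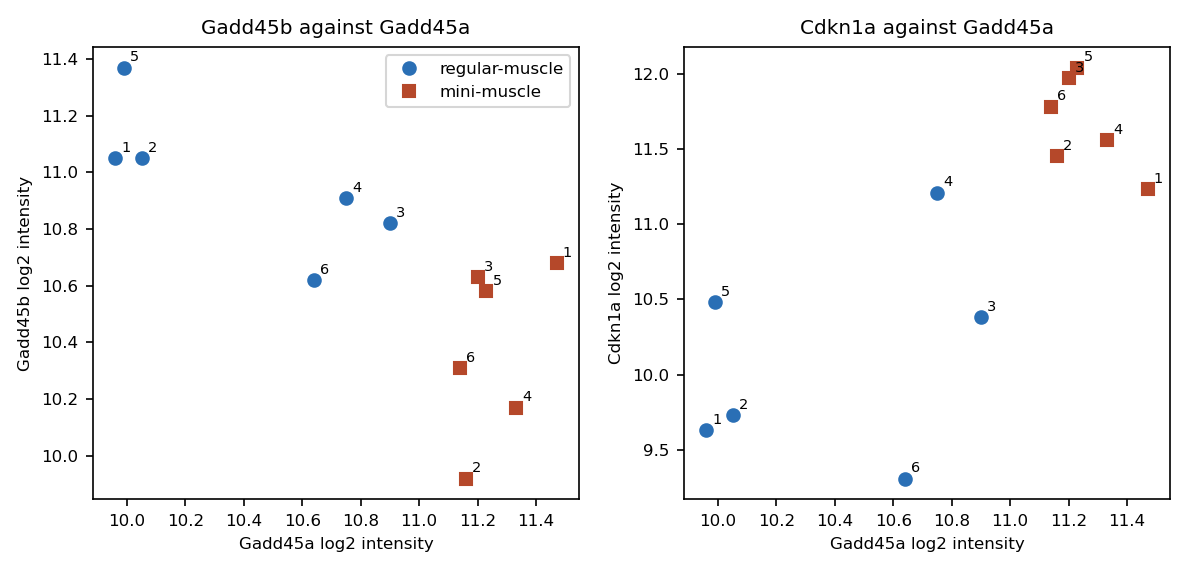
Log2 intensity of Gadd45b (left, brightest probe set) and Cdkn1a (right, brighter probe set) on the vertical axes against Gadd45a on the horizontal axes; each point is an array, numbered by replicate, with regular-muscle in blue circles and mini-muscle in red squares. All mini-muscle arrays lie right of 11.1 on Gadd45a, above all regular-muscle arrays on Cdkn1a and mostly below them on Gadd45b; regular-muscle replicate 4, at 10.75 and 11.21, is the closest to the mini-muscle arrays on Cdkn1a.

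Btg2, an antiproliferative protein that recruits the CCR4-NOT deadenylase to messenger RNA, was higher at 1 of 2 probe sets of similar brightness. At 1416250_at the mini-muscle arrays read 10.17 to 10.72 (median 10.37) and the regular-muscle arrays 9.51 to 10.36 (median 9.76). Of the mini-muscle arrays 3 lay above all regular-muscle arrays, the highest of which was replicate 3. The difference was 0.62 (SE 0.15, 1.53-fold, adjusted p = 0.013). It missed the threshold with arrays centred on their medians (adjusted p = 0.053) and without the intensity trend (adjusted p = 0.062). At 1448272_at the difference was 0.38 (SE 0.13, adjusted p = 0.081), with mini-muscle arrays at 10.25 to 10.70. Regular-muscle replicate 2 read 10.54 there and the other regular-muscle arrays 9.97 to 10.09, and without it the difference was 0.46 and passed (adjusted p = 0.022). With all arrays, 1448272_at passed in the fit of bright probe sets alone (adjusted p = 0.044), which called 20.0% of them. It also passed in the fit of 1 probe set per gene over bright genes (adjusted p = 0.032), which called 26.7% of genes. The mean of both probe sets differed by 0.50 (adjusted p = 0.011). Within the groups their values were unrelated (Pearson r = 0.03 over 12 arrays after removal of the group means, a description).

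Ccng1, which encodes cyclin G1, an atypical cyclin that recruits a phosphatase to Mdm2, gave a different answer at each of its 3 probe sets. All of them lay within the brightest 2% of the table. At the brightest (1420827_a_at) the mini-muscle arrays read 15.51 to 15.81 and the regular-muscle arrays 15.81 to 16.01, in intensities 46774 to 57286 against 57545 to 65962. The groups did not overlap but nearly touched, and the difference was -0.26 (SE 0.07, 1.19-fold lower, adjusted p = 0.035). That call was lost in 8 of the 12 cases that left out 1 array (adjusted p up to 0.086), namely mini-muscle replicates 1, 2, 3 and 6 and regular-muscle replicates 2 to 5. It was also lost with arrays centred on their medians (adjusted p = 0.43) and without the trend (adjusted p = 0.20). The other probe sets differed by -0.02 (SE 0.08, 95% interval -0.19 to 0.15) and 0.22 (SE 0.11, 95% interval -0.02 to 0.45), and the mean of all 3 differed by -0.02 (adjusted p = 0.93). The 3 probe sets thus gave no common direction for Ccng1.

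Mdm2 was not called at any of its 3 probe sets. The brightest differed by -0.07 (SE 0.19, 95% interval -0.48 to 0.33), with arrays from 10.61 to 11.78 in mini-muscle and 10.54 to 11.80 in regular muscle. The second (1427718_a_at) read 10.28 to 10.70 in mini-muscle and 9.65 to 10.52 in regular muscle, and 4 of 6 mini-muscle arrays lay above all regular-muscle arrays. Its difference was 0.46 (SE 0.15, 95% interval 0.15 to 0.77), just short of the threshold (adjusted p = 0.065 in limma), and it passed among bright probe sets alone (adjusted p = 0.038) and with array weights (adjusted p = 0.039). It also passed without mini-muscle replicate 5 (0.51), regular-muscle replicate 1 (0.54) or regular-muscle replicate 4 (0.53). The third was dim at 6.38 and ranged from 3.70 to 7.84 in regular muscle alone.

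Genes around these members were read at their brightest probe sets, from lists written with earlier results of these data known. At that level 11.1% of all 18194 genes were called, 6.27% higher and 4.83% lower, with a median difference of 0.02. Of 27 other measured genes of the p53 pathway, 4 were higher and 2 lower (22.2% called), with a median of 0.11. Eda2r, a receptor of the tumour necrosis factor family, was 2.34-fold higher (12.20 ± 0.28 against 10.97 ± 0.33, log2 1.23, SE 0.15, adjusted p = 1.4e-05). Phlda3, which restrains Akt at the membrane, was higher by 0.76 (adjusted p = 1.4e-04). Tigar, a phosphatase that lowers glycolytic flux, was 1.74-fold lower (12.14 ± 0.15 in regular muscle, log2 -0.80, adjusted p = 4.9e-04), and Rchy1, a ubiquitin ligase of p53, was lower (-0.36, adjusted p = 0.0032). The called genes of this pathway thus lay on both sides of 0, and 21 did not pass.

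Among 24 measured cyclins, Cdks, Ink4 inhibitors and pocket proteins, 3 were higher and 1 lower (16.7% called, median -0.03). Ccnd1, cyclin D1, the partner of Cdk4 that Cip/Kip proteins bind, was 2.07-fold higher (11.07 ± 0.20 against 10.02 ± 0.25, adjusted p = 2.1e-05). Rb1, the retinoblastoma protein that these kinases phosphorylate, was 1.77-fold higher (12.56 ± 0.16 against 11.73 ± 0.22, adjusted p = 2.7e-05), and Ccnd3 was higher by 0.65 (adjusted p = 0.036). Cks1b, a subunit of Cdk complexes, was the lower gene (-0.46, adjusted p = 0.044). Of 15 proliferation markers 1 was called (6.67%, median 0.22), Aurka, a mitotic kinase, at 9.49 ± 0.14 against 10.66 ± 0.34 (-1.17, adjusted p = 3.3e-05). The list gives little on dividing cells, since 10 of the 15, Mki67 and Top2a among them, lay below the median level of all probe sets.

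Among partners of the members, the Btg and Tob family with the CCR4-NOT complex had 2 lower and 0 higher of 11 (18.2% called, median 0.02). They were Cnot7, the deadenylase that Btg2 binds (-0.47, adjusted p = 5.2e-04), and Tob1, a relative of Btg2 (-0.35, adjusted p = 0.0076). Of 10 stress kinases downstream of the Gadd45 proteins 2 were lower and 0 higher (20.0% called, median 0.04), the kinases of p38 and JNK, Map2k6 (-0.52, adjusted p = 0.0091) and Map2k4 (-0.42, adjusted p = 0.011).

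Denervation-responsive genes had the largest share of calls of these lists, 7 higher and 0 lower of 13 (53.8%), with a median of 0.72. Apart from the myogenic factor Myog (1.99, adjusted p = 1.2e-06) and the adhesion molecule Ncam1 (2.39, adjusted p = 1.3e-04), the named genes were Fbxo32, the atrophy ubiquitin ligase atrogin (1.04, SE 0.18, adjusted p = 8.1e-04), and Dach2, a repressor of Myog (0.92, adjusted p = 0.0025). Regular-muscle replicate 4, the array with the highest Cdkn1a of its group, also had the highest Myog (10.04, the others 8.72 to 9.74) and Fbxo32 (13.73, the others 12.17 to 12.90) of that group. Its Fbxo32 value lay within the mini-muscle range of 13.60 to 13.89. The other named genes of the list did not follow, since the same array had the lowest Ncam1 of its group (5.48, the others 7.48 to 8.08), and its Dach2 of 8.75 lay inside the range of the others (8.13 to 9.15). Among the remaining genes of the list, that array had the highest Hdac4 (10.19) and Trim63 (14.62) of its group and the lowest Runx1 (8.19). The rest lay inside the range of the others. High values on that array were not particular to this list. Among the named p53 pathway genes it had the highest Eda2r (11.48, the others 10.51 to 11.09) and Phlda3 (12.46, the others 11.70 to 12.29) of its group. Its Tigar was the lowest (11.97), and its Rchy1 (12.28) lay inside the range. Of the named glucocorticoid-responsive genes it had the highest Mt2 (12.14, the others 9.61 to 11.55), with Sgk1 and Klf9 inside the range. These values of a single array were picked after they were seen.

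The remaining lists hold signals to which Cdkn1a, Gadd45 and Btg2 genes are known to respond. Of 10 genes of the integrated stress response 2 were higher and 2 lower (40.0% called, median 0.30). Chac1, which degrades glutathione, was 2.78-fold lower (-1.47, adjusted p = 4.4e-05) and Atf4, the transcription factor of this response, was lower (-0.43, adjusted p = 9.4e-04), whereas asparagine synthetase Asns (1.18, adjusted p = 0.0073) and the serine synthesis enzyme Psat1 (1.81, adjusted p = 0.0097) were higher. Of 10 glucocorticoid-responsive genes 1 was higher and 2 were lower (30.0% called, median 0.01). The metallothionein Mt2 was higher (1.45, adjusted p = 0.0068), and Sgk1 (-0.48, adjusted p = 0.0033) and Klf9 (-0.39, adjusted p = 0.012) were lower. Of 18 immediate early genes, which include signs of handling at dissection, 3 were higher and 1 lower (22.2% called, median 0.42). Junb (4-fold, adjusted p = 0.0026), Dusp1 (0.82, adjusted p = 0.0026) and Ier3 (0.77, adjusted p = 0.011) were higher and Nr4a1 was lower (-0.62, adjusted p = 0.0040). Neither the stress, the glucocorticoid nor the immediate early list had all of its called genes on a single side, and their part in the member values was not tested. Of the 33 calls in these 9 lists, 33 held with quantile normalization and 26 with arrays centred on their medians, and 0 turned in sign. Among the named genes the calls of Rchy1, Cks1b, Tob1, Map2k4, Sgk1 and Klf9 were lost with that centring (adjusted p = 0.064 to 0.17).

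**Figure D4:**
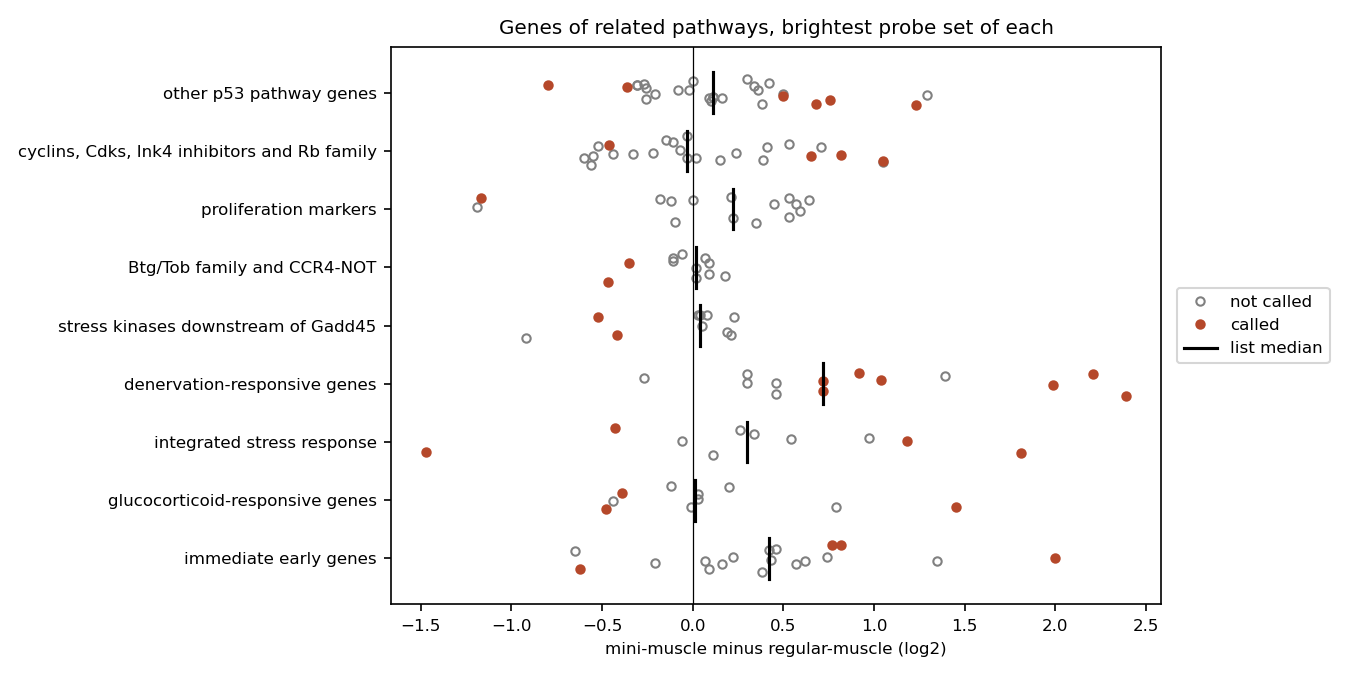
Difference between mini-muscle and regular-muscle (log2, horizontal axis) of each measured gene in 9 related lists, at its brightest probe set; filled red points were called, open points were not, and the black bar is the list median (vertical scatter within a list has no meaning). The denervation-responsive genes have the highest median, 0.72, and called genes on the right alone; the p53 pathway has a median of 0.11 and called genes on both sides.

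The genes most like 3 of the members were sought by Pearson correlation over the 12 arrays after removal of the group means, among 9096 other genes at or above the median gene level. Each member was read at its brightest probe set. For Btg2 this was 1448272_at, which was not called and had r = 0.03 with the called 1416250_at within the groups. Regular-muscle replicate 2 lay far from its group there (10.54, the others 9.97 to 10.09). The part of that array in the correlations of Btg2 was not tested. For Cdkn1a the most like genes were Hdac11, Slk and Smyd4 (r = 0.87 each), for Gadd45a Rcor3 (0.93), Gtf2h5 and Mrps16 (0.88 each), and for Btg2 at 1448272_at Rnd3 and Ehmt2 (0.87 each) and Zfp568 (0.85). These are the highest of 9096 values over 12 arrays and are given as a description. None of the 3 genes named for Cdkn1a and none of those for Gadd45a were called between the groups by limma at an adjusted p under 0.05 (Mrps16 had 0.27, adjusted p = 0.082), whereas Rnd3, Ehmt2 and Zfp568 were higher by 0.93, 0.78 and 0.64.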

How the data were processed

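Per the labels' protocols, RNA was isolated with Trizol followed by a cleanup column, and 5 µg of it was turned into biotinylated cRNA. The authors deposited linear intensities; the submitters' processing notes name MAS5, with version and settings not given in the sources used. The deposited intensities of each array have a mean of 800.0 after trimming 2% at each end, so the arrays share 1 scaling target. Arrays have no read depth, and their number limits the precision.

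Intensities were taken to log2 without further normalization and compared with limma (version 3.58.1, R 4.3.3; two-sided, lmFit then eBayes with an intensity trend) over 34958 probe sets naming 1 gene, without a filter on dim ones, since the rule takes every probe set. Adjusted p-values are Benjamini-Hochberg values from this fit unless another test is named. Array measures used exact permutation over 924 assignments (smallest p 0.0022). Platform gene names were used, and 34754 of the probe sets matched a RefSeq gene.

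Named were all members, up to 4 called genes per list with the smallest adjusted p, and 3 most similar genes for 3 members. Members, lists and rules were chosen with earlier results of these data known. In simulated data for this comparison (34958 probe sets, 200 of them changed), 30% of 1.5-fold and 61% of 2-fold changes in bright probe sets were recovered. The simulation called 95 probe sets, against 3117 in the data. Its Benjamini-Hochberg cut was therefore stricter, so these shares may understate the recovery in the data. The alternatives were 9 settings and 12 fits without 1 array. The labels do not state whether animals share litters or scan days.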

Additional observations from a re-analysis of the deposited data

Results flagged for a closer look

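Among 42 sets of 6 arrays (18 probe sets and 3 array measures in each group), 6 held an array far from the others of its group, where chance gives about 1 in 20 sets. Cdkn1c read 10.60 on regular-muscle replicate 5 and 9.39 to 9.79 on the others. The second Gadd45b probe set read 9.93 on regular-muscle replicate 3 and 10.61 to 10.86 on the others, and the Btg2 probe set 1448272_at read 10.54 on regular-muscle replicate 2 and 9.97 to 10.09 on the others. For these 3 the adjusted p passed in limma once that array was left out. The third Ccng1 probe set read 14.14 on regular-muscle replicate 1 and 13.57 to 13.75 on the others, and without it the difference was 0.29 (adjusted p = 0.11). The remaining values were from dim probe sets: Cdkn1b read 4.12 on mini-muscle replicate 1 (others 6.91 to 8.30) and Mdm2 read 3.70 on regular-muscle replicate 2 (others 6.58 to 7.84).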

How the results depend on the processing

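The brighter Cdkn1a probe set and Gadd45a kept their direction and call in every alternative run. Of all single-gene probe sets, 2028 were called with arrays centred on their medians, 1702 without the intensity trend and 1338 with the mean of the probe sets of a gene (18194 genes), against 3117, and 2637 to 3080 with 1 array left out. With 1 probe set per gene and bright genes alone, 2426 of 9097 (26.7%) were called. The member probe sets called fell from 6 to 3 (Gadd45a and both of Cdkn1a) with median centring and to 3 without the trend. They were 5 to 7 with 1 array left out, 7 with array weights, and 8 of 14 (6 higher, 2 lower) in a fit of bright probe sets alone, where 3500 of 17479 (20.0%) were called. Signs turned only at values that were not called. The second Ccng1 probe set gave 0.00 after quantile normalization and -0.06 to 0.03 with 1 array left out. In those fits the dim Gadd45b probe set gave -0.23 to 0.06 and the brightest Mdm2 probe set -0.24 to 0.06. The cause of these turns was not tested. Cdkn1b gave 0.25 (SE 0.30) with the mean of its probe sets, which averages -0.15 at the bright and 0.65 at the dim probe set. No paired analysis was possible because the labels name single animals and give no replicate numbers to pair. Changes of 1.5-fold were often missed in the simulation, although its cut was stricter than that of the data. A member that was not called may still differ.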
